A study of Mus musculus with 30 samples.

Results

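Il5ra, the gene for the alpha chain of the interleukin-5 (IL-5) receptor, was examined together with 9 further cytokine receptor genes in splenic B cells and leukemia cells of mice carrying a mutant Ikzf3. The 10 genes were taken by name: Il5ra, Csf2rb, Csf2rb2, Il4ra, Il10ra, Il10rb, Il21r, Il2rg, Ifngr1 and Ifnar1. They are 10 of the 22781 named genes in the table of aged mice and of the 26266 in the table of young mice, and all 10 passed the filter on low values in every comparison. Il5ra was chosen by its measured TPM in aged leukemia cells against aged wild-type B cells, so its aged values are a description with no test. The set was proposed with results of these data in view, and which values, if any, led to the other 9 genes is not recorded.

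Aiolos, the product of Ikzf3, is an Ikaros family transcription factor with zinc fingers. All mice were C57BL/6, and the mutant mice carried a conditional knock-in of the L161R change in Ikzf3, restricted to B cells by a Cre whose driver the labels do not name. RNA was sequenced in 18 libraries of 5 groups. The young groups, aged 2 to 3 months, were wild-type B cells (n = 3) and homozygous mutant B cells, Ikzf3 fl/fl (n = 3). The aged groups, 15 to 18 months old, were wild-type B cells (n = 3), non-leukemic B cells of mutant mice (n = 4) and chronic lymphocytic leukemia (CLL) cells of mutant mice (n = 5). Of the aged mutant libraries, number 6 of each group was homozygous and the others were heterozygous, Ikzf3 fl/+. B cells were taken with magnetic beads, with a stated purity of at least 85% for the aged mice, whereas flow sorting on B220 together with CD5 gave the CLL cells. The CLL cells therefore differed from both B cell groups in the way they were isolated as well as in being leukemic, and these cannot be told apart. Nothing states that the young replicates came from separate mice, so the p-values measure the spread between these libraries.

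Values are in TPM, an abundance scaled to transcript length and to the total of the library, so levels of different genes in 1 library can be set side by side. The numbers of reads are unknown. The B cell markers Ms4a1, Cd79a, Cd79b, Pax5, Ptprc, Cd22 and Blk summed to between 5296 and 13484 TPM in the aged libraries and to between 7772 and 9052 TPM in the young ones. The aged libraries differed in background. The median TPM of 1106 olfactory receptor genes, which B cells should lack, lay between 7.16 and 9.24 in the 4 non-CLL libraries, at 9.66 in CLL library 6, between 1.08 and 2.71 in the other CLL libraries, and between 0 and 0.745 in wild-type libraries. A low level in a non-CLL library or in CLL library 6 is thus close to that library's own background. The 2 tables were processed separately, and no level was compared between them.

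Cytokine receptors of this kind have no kinase of their own. Ligand brings receptor chains together, the Janus kinases (JAK) bound to their tails become active, and STAT transcription factors are phosphorylated and enter the nucleus. Chains are shared between receptors. Il5ra binds IL-5 and signals with Csf2rb, the common beta chain that also serves IL-3 and GM-CSF, whereas Csf2rb2 is a second beta chain of the mouse that serves IL-3. Il2rg, the common gamma chain, pairs with Il4ra in the IL-4 receptor and with Il21r in the IL-21 receptor. Il10ra and Il10rb form the IL-10 receptor, and Ifngr1 and Ifnar1 are chains of the interferon-gamma and type I interferon receptors. In the mouse, IL-5 is known as a growth factor of eosinophils and of B-1 cells, a B cell subset of which only part carries CD5.

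Several of the genes are neighbours in the genome (GRCm38.p6). Il5ra lies on chromosome 6, at chr6:106710375-106749037. Csf2rb2 (chr15:78282507-78305721) and Csf2rb (chr15:78325800-78351001) lie 20.1 kb apart, Il4ra (chr7:125552271-125579474) and Il21r (chr7:125603252-125634397) lie 23.8 kb apart, and Il10rb (chr16:91406157-91425834) and Ifnar1 (chr16:91485032-91510523) lie 59.2 kb apart, each pair with 0 protein-coding genes between. Il10ra lies at chr9:45253837-45269149, Ifngr1 at chr10:19591949-19610229 and Il2rg at chrX:101264385-101268255. Csf2rb and Csf2rb2 are close copies in sequence, so reads could be divided between them wrongly, and how the reads were assigned is not given in the sources used here.

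The 250 bases before the annotated start are shown for Il5ra, the gene with the largest aged difference, and for Csf2rb2, the beta chain that was lower in CLL cells than in non-CLL B cells. They are RefSeq sequences of GRCm38.p6, read on the strand of each gene: chr6:106749038-106749287 on the minus strand for Il5ra and chr15:78305722-78305971 on the minus strand for Csf2rb2. Capitals mark a match to the STAT palindrome TTCNNNGAA.
Il5ra: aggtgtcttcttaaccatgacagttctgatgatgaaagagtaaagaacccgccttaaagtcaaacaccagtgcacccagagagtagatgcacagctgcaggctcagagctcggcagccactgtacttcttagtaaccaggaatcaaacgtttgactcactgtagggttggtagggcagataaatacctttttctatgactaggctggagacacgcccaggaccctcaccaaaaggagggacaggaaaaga
Csf2rb2: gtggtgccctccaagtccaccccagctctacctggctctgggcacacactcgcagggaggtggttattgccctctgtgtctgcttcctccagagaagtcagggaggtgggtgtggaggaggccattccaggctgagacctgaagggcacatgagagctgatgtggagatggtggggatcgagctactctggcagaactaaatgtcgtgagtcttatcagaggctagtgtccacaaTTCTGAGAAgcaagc
RefSeq promoter windows were at hand for 7 of the 10 genes, all but Csf2rb, Il10ra and Il10rb. For Il21r and Ifnar1 the table takes a start inside the gene as placed above, so that 177 and 183 of the 250 bases of their windows lie within it. The palindrome TTCNNNGAA was found on either strand of 7.18% of 27025 promoter windows of this length, and among the 7 genes in Csf2rb2, 15 bases before the start. GGGAA, the core letters bound by Ikaros family zinc fingers, was found on either strand of 55.9% of the windows. Among the 7 genes it was found in Il4ra, 222 bases before the start, and in Il2rg, 240 bases before it. These are matches of letters and not binding sites.

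Il5ra was high in every CLL library. In CLL libraries 1, 2, 4, 5 and 6 it reached 157, 267, 272, 188 and 212 TPM (219 ± 50.1, SD, n = 5). In non-CLL libraries 2, 4, 5 and 6 it stood at 17.0, 30.3, 38.6 and 15.1 TPM (25.2 ± 11.2, n = 4), and in wild-type libraries 1 to 3 at 20.0, 4.52 and 26.6 TPM (17.0 ± 11.3, n = 3). The lowest CLL library lay above the highest of the 7 other aged libraries, and the homozygous CLL library fell within the range of the heterozygous ones. The non-CLL and wild-type ranges overlapped. On the scale of log2(TPM + 1), the CLL mean exceeded the wild-type mean by 3.87 (SE 0.40), which is 14.6-fold, and the non-CLL mean by 3.14 (SE 0.30), which is 8.80-fold. The values that chose the gene lie in the first of these, and both share the CLL libraries. The non-CLL mean exceeded the wild-type mean by 0.73 (SE 0.56). Libraries were also rescaled by trimmed means of M-values (TMM), the log ratios to a reference library. After that rescaling the non-CLL mean lay below the wild-type mean, a difference of -0.34.

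IL-5 receptor alpha is also a gene of eosinophils. Of 12 eosinophil, basophil and mast cell markers, summed levels ran from 16.3 to 115 TPM in CLL libraries, from 85.8 to 119 TPM in non-CLL libraries and from 12.04 to 23.0 TPM in wild-type libraries, where Ear1, Ear2 and Ear6 were at 0 in all 3. Per marker this was a mean of 1.36, 5.61, 1.56, 2.58 and 9.60 TPM in CLL libraries 1, 2, 4, 5 and 6, beside olfactory receptor medians of 1.34, 2.71, 1.08, 2.55 and 9.66 TPM, and the sums in the non-CLL libraries were likewise near their background. The 9 B-1 cell markers summed to between 223 and 1354 TPM in CLL libraries, between 332 and 385 TPM in non-CLL libraries and between 46.8 and 614 TPM in wild-type libraries, and the part of either list in the level of Il5ra was not tested.

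Csf2rb, the signalling partner of Il5ra, was also highest in CLL cells. It reached 259, 771, 283, 459 and 399 TPM in CLL libraries 1, 2, 4, 5 and 6 (434 ± 206, SD, n = 5). It stood at 95.002, 153, 102 and 141 TPM in the non-CLL libraries (123 ± 28.6, n = 4) and at 38.2, 277 and 65.7 TPM in the wild-type libraries (127 ± 131, n = 3). All CLL libraries lay above all non-CLL libraries, whereas wild-type library 2 lay inside the CLL range. Against non-CLL B cells Csf2rb rose by 1.73 on the log2 scale (SE 0.30, limma adjusted p = 0.0010), or 3.32-fold, and it kept this call under all 18 alternative analyses. Against wild-type B cells the difference was 2.16 (SE 0.67), or 4.47-fold, and missed the threshold with a limma adjusted p of 0.0599. Without wild-type library 2, which left 2 wild-type libraries, it was 2.97 with a limma adjusted p of 1.56e-14. Wild-type spread then rested on those 2 libraries alone, so the size of this p carries little weight. Csf2rb passed in 11 of 18 alternatives. CLL library 2, with the highest Csf2rb, also had the highest level of the macrophage and neutrophil gene Lyz2, 656 TPM against 6.20 to 45.9 TPM in the other CLL libraries. Without CLL library 2 the difference from wild-type cells was 1.92 (adjusted p = 1.13e-05). In a bulk library, more cells of a type and more RNA per cell cannot be told apart.

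**Figure D1:**
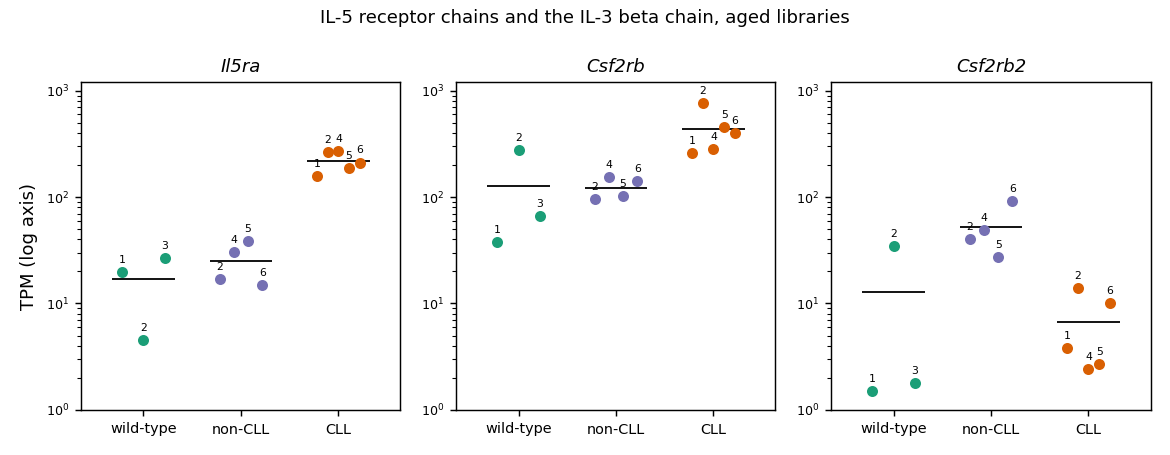
Levels of Il5ra, Csf2rb and Csf2rb2 in the 12 aged libraries, in TPM on a logarithmic axis, with 1 point per library and a line at the arithmetic mean of each group. Il5ra lies between 157 and 272 TPM in CLL cells and at 38.6 TPM or below in the other groups, while Csf2rb2 is highest in non-CLL B cells, between 27.5 and 92.2 TPM.

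Csf2rb2 had a pattern of its own. It stood at 3.78, 14.1, 2.43, 2.72 and 10.2 TPM in CLL libraries 1, 2, 4, 5 and 6 (6.65 ± 5.24, SD, n = 5). It was at 40.1, 49.2, 27.5 and 92.2 TPM in the non-CLL libraries (52.2 ± 28.1, n = 4) and at 1.50, 35.0 and 1.80 TPM in the wild-type libraries (12.8 ± 19.2, n = 3). The CLL and non-CLL ranges did not overlap, and wild-type library 2 stood far above the other wild-type libraries. In CLL cells Csf2rb2 fell by 2.93 on the log2 scale against non-CLL B cells (SE 0.46, limma adjusted p = 0.00058), a call kept under all 18 alternatives. Between CLL and wild-type cells the difference was 0.01 (SE 0.81, 95% interval -1.70 to 1.72, adjusted p = 0.994). Between non-CLL and wild-type B cells it was 2.94 (SE 0.90, adjusted p = 0.0202). That call was lost in 9 of 15 alternatives, among them TMM rescaling (1.87, adjusted p = 0.183) and leaving out wild-type library 1 or 3 or non-CLL library 2, 4 or 6, and without wild-type library 2 the difference was 4.19.

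The ratio of the 2 beta chains, formed from the values above, was lowest in the non-CLL libraries. The lowest CLL ratio lay just above the highest wild-type ratio. Csf2rb exceeded Csf2rb2 by 39.1 to 168 times in the CLL libraries and by 1.53 to 3.71 times in the non-CLL libraries. In wild-type libraries 1, 2 and 3 the ratio was 25.5, 7.93 and 36.5. The ratio of Csf2rb to Il5ra lay between 1.04 and 2.89 in CLL libraries, between 2.64 and 9.34 in non-CLL libraries, and at 1.91, 61.4 and 2.47 in wild-type libraries. Wild-type library 2 stood apart in both ratios, with the lowest Il5ra and the highest Csf2rb and Csf2rb2 of its group.

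Levels of Csf2rb2 moved with those of Siglech, a surface lectin of plasmacytoid dendritic cells. Siglech was at 1.32, 14.6, 1.61, 3.39 and 18.1 TPM in CLL libraries 1, 2, 4, 5 and 6. It was at 298, 288, 137 and 784 TPM in the non-CLL libraries and at 0, 126 and 1.89 TPM in the wild-type libraries. The non-CLL libraries and wild-type library 2, which were highest in Csf2rb2, were thus the 5 highest in Siglech. Summed over 8 markers of plasmacytoid and conventional dendritic cells, levels ran from 132 to 303 TPM in CLL, from 375 to 1676 TPM in non-CLL and from 109 to 415 TPM in wild-type libraries. Of these 8 markers, 5 were called lower in CLL than in non-CLL cells, beside 5.02% of all genes, and 5 were called higher in non-CLL than in wild-type cells, beside 55.8% of all genes. Their part in the level of Csf2rb2 was not tested. In CLL library 6, Csf2rb2 (10.2 TPM) was close to the olfactory receptor background of 9.66 TPM. After subtraction of each library's background the fall from non-CLL to CLL cells was larger, a difference of -3.81 (adjusted p = 0.0067).

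**Figure D2:**
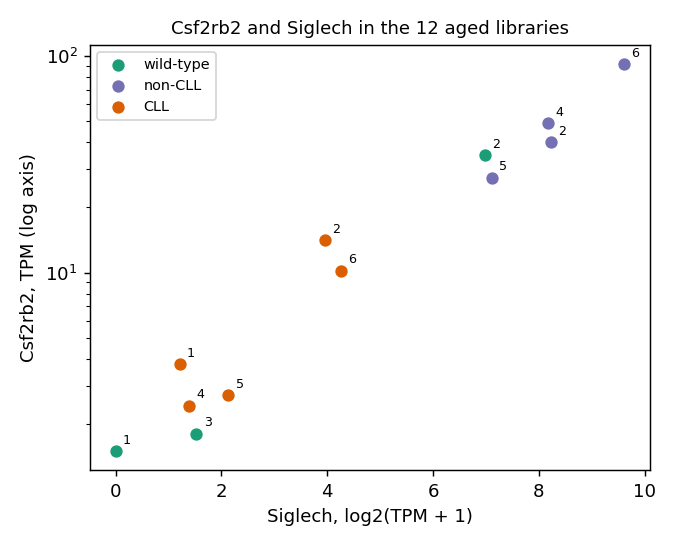
Csf2rb2, in TPM on a logarithmic axis, against Siglech, as log2(TPM + 1), in the 12 aged libraries, with points marked by group. The 4 non-CLL libraries and wild-type library 2 hold the 5 highest values of both genes.

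The common gamma chain Il2rg was abundant throughout, and its groups overlapped. CLL libraries 1, 2, 4, 5 and 6 had 2266, 785, 488, 583 and 527 TPM, so that library 1 alone carried the high mean. Non-CLL libraries had 752, 767, 1104 and 503 TPM, and wild-type libraries had 720, 940 and 824 TPM. The differences of CLL cells were -0.10 against wild-type cells (95% interval -0.98 to 0.78) and 0.03 against non-CLL cells (95% interval -0.85 to 0.91), neither passing the test.

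Il21r, the IL-21 receptor and partner of Il2rg, was low in CLL cells. It stood at 19.8, 16.3, 9.38, 24.9 and 44.1 TPM in CLL libraries 1, 2, 4, 5 and 6 (22.9 ± 13.1, SD, n = 5). The non-CLL libraries had 78.0, 83.1, 93.3 and 46.0 TPM (75.1 ± 20.4, n = 4), and the wild-type libraries had 87.9, 72.5 and 47.7 TPM (69.3 ± 20.3, n = 3). No CLL library reached the lowest of the other 7 libraries, and CLL library 6 came nearest. Il21r fell by 1.68 on the log2 scale against wild-type cells (SE 0.40, limma adjusted p = 0.0111) and by 1.79 against non-CLL cells (SE 0.36, adjusted p = 0.0053). The first call was lost in 4 of 18 alternatives, with adjusted p = 0.0715 without wild-type library 1. The second was lost under TMM rescaling, where the difference was -0.91 (adjusted p = 0.131), and with the replicate block (adjusted p = 0.0542).

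Il4ra, the IL-4 receptor alpha chain and genomic neighbour of Il21r, did not pass the test in the main analysis of any aged comparison. It stood at 50.3, 44.8, 34.9, 26.9 and 37.0 TPM in CLL libraries, at 55.2, 68.7, 62.5 and 31.0 TPM in non-CLL libraries and at 86.2, 44.3 and 60.3 TPM in wild-type libraries. The differences of CLL cells were -0.68 against wild-type cells (95% interval -1.39 to 0.03, adjusted p = 0.124) and -0.45 against non-CLL cells (95% interval -1.07 to 0.18, adjusted p = 0.264). Groups overlapped in both. Against wild-type cells Il4ra passed, as lower in CLL cells, in 2 of 18 alternatives (smallest limma adjusted p = 0.0148). Under TMM rescaling its difference from non-CLL cells was 0.45. Between non-CLL and wild-type cells it passed in 1 of 15 alternatives.

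Ifnar1, a chain of the type I interferon receptor, was lower in all CLL libraries than in any other aged library. CLL libraries 1, 2, 4, 5 and 6 had 302, 290, 191, 177 and 239 TPM (240 ± 56.7, SD, n = 5). Non-CLL libraries had 421, 584, 347 and 580 TPM (483 ± 119, n = 4), and wild-type libraries had 412, 386 and 491 TPM (430 ± 54.6, n = 3). Ifnar1 fell by 1.00 on the log2 scale against non-CLL cells (SE 0.27, limma adjusted p = 0.0347). Against wild-type cells the difference of -0.86 (SE 0.30) missed the threshold (adjusted p = 0.0546), and it passed in 10 of 18 alternatives, among them leaving out wild-type library 2 or CLL library 1, 4 or 6. The call against non-CLL cells was lost in 8 of 18, among them TMM rescaling, where the difference was -0.09 (adjusted p = 0.887), and leaving out CLL library 4 or 5 or non-CLL library 2, 4 or 6.

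The IL-10 receptor chains had smaller differences. Il10ra, the ligand-binding chain, stood at 72.7, 103, 41.2, 90.6 and 74.9 TPM in CLL libraries, below all 4 non-CLL libraries at 135, 128, 149 and 117 TPM. Wild-type libraries had 162, 100.4 and 138 TPM. Its difference was -0.84 against non-CLL cells (SE 0.28, adjusted p = 0.0569) and -0.83 against wild-type cells (SE 0.33, adjusted p = 0.0625), both short of the threshold. The call against non-CLL cells was made without CLL library 6 (adjusted p = 0.0305), and that against wild-type cells without wild-type library 2 (0.0439) or CLL library 1 (0.0491). Il10rb, the chain shared with other receptors, stood at 45.7, 92.6, 66.5, 107 and 134 TPM in CLL libraries, at 155, 160, 129 and 241 TPM in non-CLL libraries and at 157, 112 and 168 TPM in wild-type libraries. It fell by 0.99 on the log2 scale against non-CLL cells (SE 0.30, limma adjusted p = 0.0490), a call lost in 14 of 18 alternatives, including the removal of any 1 library other than CLL library 6. Against wild-type cells the difference was -0.78 (adjusted p = 0.0737), and the groups overlapped.

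Ifngr1, the ligand-binding chain of the interferon-gamma receptor, varied as much within groups as between them. CLL libraries had 37.0, 200.1, 94.9, 102 and 51.2 TPM, non-CLL libraries had 49.8, 101, 128 and 78.9 TPM, and wild-type libraries had 135, 53.5 and 201 TPM. The differences of CLL cells were -0.46 against wild-type cells (95% interval -1.78 to 0.86) and -0.04 against non-CLL cells (95% interval -0.97 to 0.88), and neither passed the test. Without wild-type library 2 the former was -0.99, with an adjusted p of 0.0453.

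**Figure D3:**
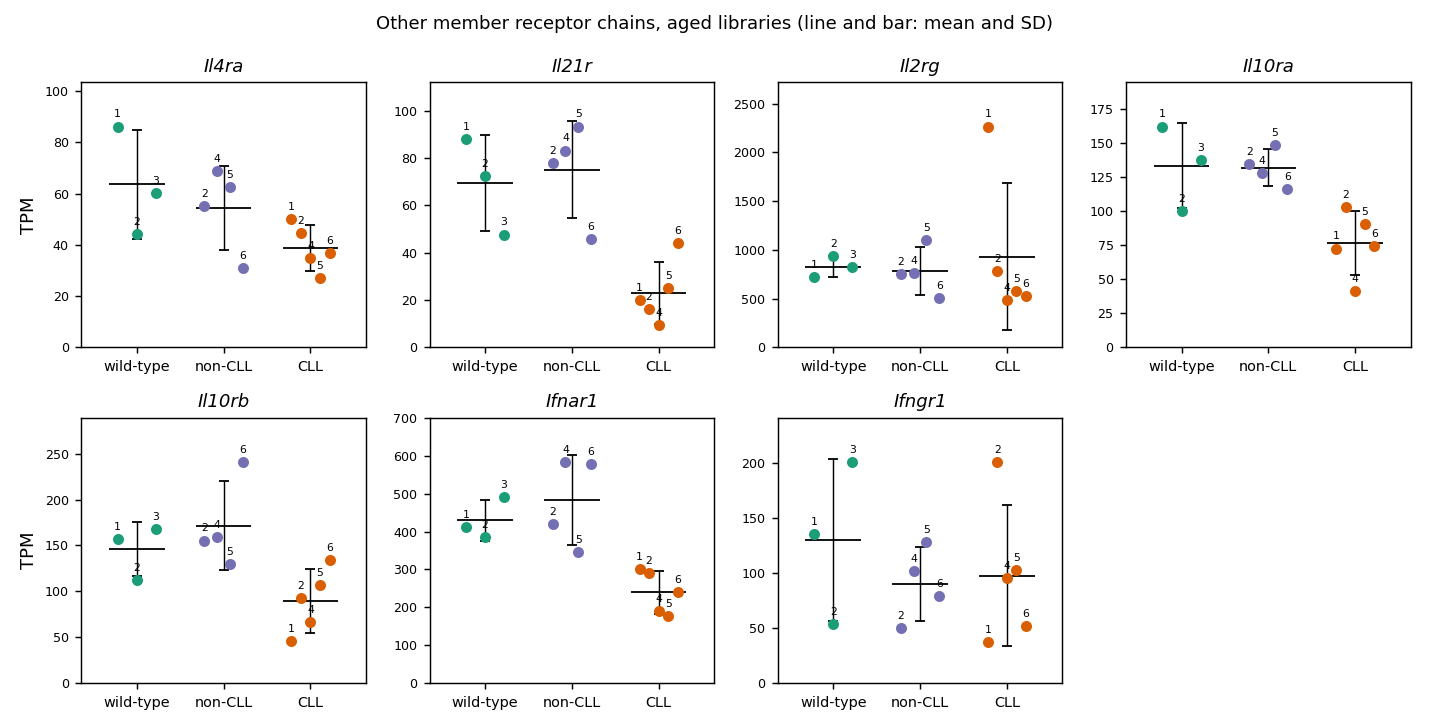
Levels of Il4ra, Il21r, Il2rg, Il10ra, Il10rb, Ifngr1 and Ifnar1 in the 12 aged libraries, with 1 point per library and a line at the arithmetic mean of each group. Il21r and Ifnar1 lie lower in all 5 CLL libraries than in all 7 others, and Il2rg has 1 CLL library at 2266 TPM.

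Counted without Il5ra, 1 of the 9 genes was called lower (Il21r) and 0 higher in CLL against wild-type cells by limma, with 5 at an unadjusted p below 0.05. Of all 21202 genes tested, 3.54% were called, 2.94% higher and 0.604% lower. Groups did not overlap for 2 of the 9, Il21r and Ifnar1, both lower, and for 31.5% of all genes, 29% higher and 2.55% lower. Against non-CLL cells 1 of 9 was called higher (Csf2rb) and 4 lower (Csf2rb2, Il10rb, Il21r and Ifnar1), beside 5.77% of 22316 genes, 0.744% higher and 5.02% lower. Groups did not overlap for 5 of the 9, Csf2rb above and Csf2rb2, Il10ra, Il21r and Ifnar1 below, and for 8.68% of all genes, 1.17% higher and 7.51% lower. Between non-CLL and wild-type B cells 1 of 9 was called higher (Csf2rb2) and 0 lower, beside 57.3% of 22150 genes, 55.8% higher and 1.48% lower. Groups overlapped for all 9, whereas they did not for 56% of all genes, 53.7% higher and 2.33% lower. All 3 aged comparisons share libraries, so their counts are not independent.

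These counts depend on the scale of the libraries. The median difference of all genes tested was 0.93 on the log2 scale between CLL and wild-type cells, -0.77 between CLL and non-CLL cells and 1.65 between non-CLL and wild-type cells, and the medians of the 9 receptor genes were -0.68, -0.84 and 0.11. With genes of at least 20 TPM alone, the medians of all genes were -0.04, -0.06 and 0.02. After TMM rescaling of all genes tested they were 0.63, -0.09 and 0.92, so this rescaling did not level the comparisons with wild-type cells. TMM rescaling changed the share of higher genes among all calls from 83.0% to 79.6% for CLL against wild-type cells, from 12.9% to 70.0% for CLL against non-CLL cells and from 97.4% to 69.1% for non-CLL against wild-type cells. Under it, 6 of the 9 receptor genes were called against wild-type cells in CLL (1 higher and 5 lower) and 6 in non-CLL cells (all lower). Against non-CLL cells it left 2 of 9 called in CLL cells, Csf2rb higher by 2.64 and Csf2rb2 lower, a difference of -2.11.

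**Figure D4:**
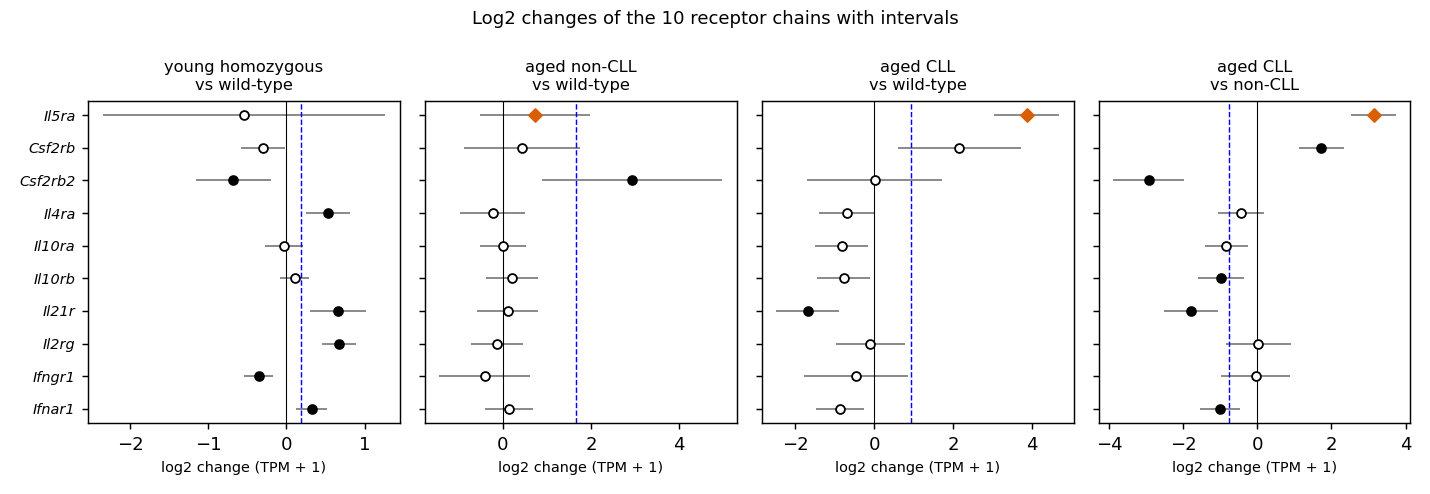
Differences of the 10 genes on the log2(TPM + 1) scale in the 4 comparisons, first group minus second, with 95% intervals. Black points passed the adjusted threshold of 0.05, white points did not, the orange diamonds are aged Il5ra, which was not tested, and the dashed blue line is the median of all genes tested.

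In young mice, Il5ra was not called different between homozygous mutant and wild-type B cells. It stood at 32.7, 26.8 and 20.8 TPM in wild-type libraries 1 to 3 (26.7 ± 5.96, SD, n = 3) and at 47.5, 8.25 and 13.7 TPM in homozygous libraries 1 to 3 (23.1 ± 21.2, n = 3). Homozygous library 1 was the highest of the 6 and the other homozygous libraries the lowest. The difference was -0.54 (SE 0.69, 95% interval -2.35 to 1.26, limma adjusted p = 0.544). Without homozygous library 1 it was -1.23 with an adjusted p of 0.0163.

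The chains of the IL-4 and IL-21 receptors were called higher in young mutant B cells, as were 38.4% of all genes tested. Il2rg rose from 245, 234 and 288 TPM in wild-type to 386, 419 and 418 TPM in homozygous libraries, by 0.67 on the log2 scale (SE 0.10, limma adjusted p = 0.00084). Il21r rose from 108, 100.3 and 156 TPM to 189, 184 and 193 TPM, by 0.66 (SE 0.15, adjusted p = 0.0094). Il4ra rose from 78.6, 71.9 and 102 TPM to 116, 120 and 126 TPM, by 0.53 (SE 0.12, adjusted p = 0.0074). In each of the 3 the lowest homozygous library lay above the highest wild-type library. Wild-type libraries 1 and 2 stand apart as given further on. Without them only wild-type library 3 was left, and the differences were 0.27 for Il21r, 0.24 for Il4ra and 0.50 for Il2rg. Wild-type spread could not be measured there, so no call is given. Ifnar1 rose less, from 35.2, 32.9 and 39.2 TPM to 42.9, 44.9 and 46.9 TPM, by 0.32 (SE 0.09, adjusted p = 0.0138).

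Ifngr1 and Csf2rb2 fell in young mutant B cells. Ifngr1 went from 128, 125 and 120 TPM in wild-type to 97.8, 105 and 88.8 TPM in homozygous libraries and fell by 0.36 on the log2 scale (SE 0.08, limma adjusted p = 0.0071). Csf2rb2 went from 3.88, 5.18 and 2.84 TPM to 1.94, 2.68 and 1.60 TPM and fell by 0.68 (SE 0.21, adjusted p = 0.0249). Groups did not overlap for either gene, though Csf2rb2 was low in all 6 libraries. Csf2rb2 lost its call in 6 of 12 alternatives, among them the removal of wild-type library 1 or 2 or homozygous library 1 or 3. These 6 include the fit that left only wild-type library 3. Csf2rb stood at 21.1, 24.3 and 17.1 TPM against 16.9, 16.5 and 16.1 TPM, with a difference of -0.30 that missed the threshold (adjusted p = 0.068) and passed under TMM rescaling (-0.50, adjusted p = 0.019) and without wild-type library 3 (-0.43, adjusted p = 0.0066). Il10ra (147 to 184 TPM against 142 to 170 TPM) and Il10rb (105 to 122 TPM against 117 to 124 TPM) overlapped between the groups, with differences of -0.03 and 0.10.

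**Figure D5:**
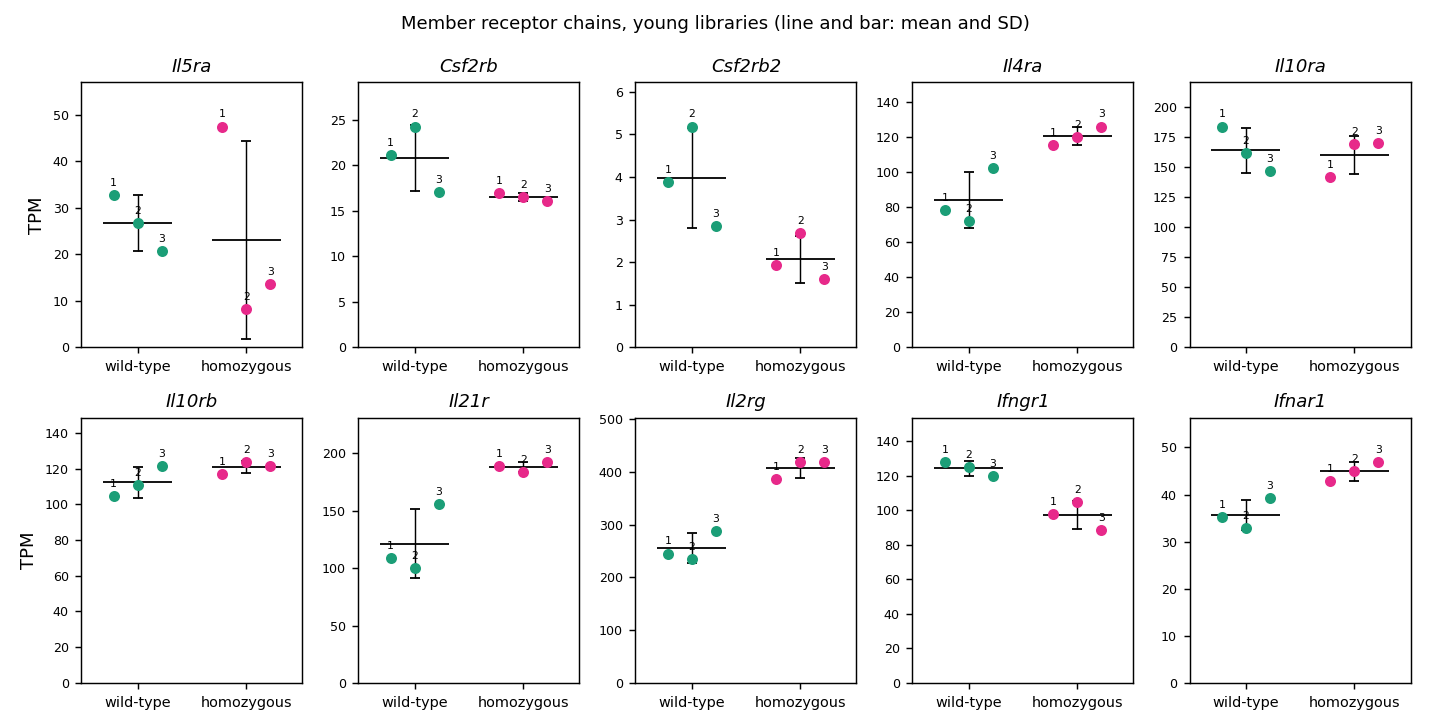
Levels of the 10 genes in the 6 young libraries, wild-type and homozygous mutant, with 1 point per library and a line at the arithmetic mean of each group. Il2rg, Il21r, Il4ra and Ifnar1 are higher in all homozygous libraries, Ifngr1, Csf2rb2 and Csf2rb are lower in all of them, and Il5ra spreads from 8.25 to 47.5 TPM in the homozygous group.

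In all, 4 of the 10 genes were called higher and 2 lower in young mutant B cells. Of all 12219 genes tested, 51% were called, 38.4% higher and 12.6% lower, so the share among the 10 was near that of the table. Groups did not overlap for 7 of the 10, 4 higher and 3 lower, and for 61.4% of all genes, 44.5% higher and 16.9% lower. The median difference of all genes was 0.18, and the median of the 10 genes was 0.04. TMM rescaling changed the share of higher genes among all calls from 75.3% to 51.7% and gave 3 of the 10 higher and 3 lower, with Ifnar1 at 0.12 (adjusted p = 0.17). Wild-type libraries 1 and 2 differed from the other young libraries: Xist, the RNA of the inactive X chromosome, stood at 80.9 and 63.1 TPM in them and at 0.0567 TPM or below in the other 4. The 12 neutrophil and macrophage markers summed to between 1496 and 5492 TPM in wild-type and between 203 and 470 TPM in homozygous libraries. Without wild-type libraries 1 and 2 only wild-type library 3 was left, so wild-type spread could not be measured and no call is given. The differences were then 0.50 for Il2rg, which lies on the X chromosome, 0.19 for Ifnar1, -0.30 for Ifngr1 and -0.34 for Csf2rb2. The part of sex and of myeloid cells in these results was not tested beyond this.

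Other chains of the family were counted over a list of 28 genes. In young mutant B cells 3 of the 22 tested rose and 4 fell, beside 38.4% and 12.6% of all genes, and the median difference of the 22 was -0.17 against 0.18 for all genes. The risers were Il2ra, the alpha chain of the high-affinity IL-2 receptor (0.68, adjusted p = 0.0079), Il27ra (0.43, adjusted p = 0.0107) and Il11ra1 (0.39, adjusted p = 0.0139). The largest falls were Csf3r, the G-CSF receptor of neutrophils (-2.56, adjusted p = 0.0309), Il13ra1 (-1.38, adjusted p = 0.0471) and Il6ra (-0.67, adjusted p = 0.0123). Neutrophil and macrophage markers summed to 1496 to 5492 TPM in the young wild-type and 203 to 470 TPM in the homozygous libraries. Their part in these falls was not tested. In CLL against wild-type cells 3 of 27 rose and 1 fell, beside 2.94% and 0.604% of all genes. Csf2ra, the GM-CSF alpha chain that also pairs with Csf2rb, rose from a mean of 8.30 to 37.1 TPM (1.99, SE 0.43, limma adjusted p = 0.0041). Its CLL values of 21.7, 47.2, 26.8, 26.8 and 63.2 TPM lay above the wild-type values of 4.80, 11.5 and 8.60 TPM, but not above the non-CLL values of 63.2, 62.0, 33.9 and 60.7 TPM. Il2ra (2.16) and Il15ra (1.80) were called higher as well. Il2ra stood at 13.4, 10.2, 3.13, 3.48 and 26.1 TPM in CLL libraries 1, 2, 4, 5 and 6. The olfactory receptor medians there were 1.34, 2.71, 1.08, 2.55 and 9.66 TPM, and the part of this background was not tested. Mean Il2ra was 1.18 TPM in wild-type, 11.3 TPM in CLL and 13.2 TPM in non-CLL libraries. Ifnar2, the partner of Ifnar1, fell from a mean of 59.6 to 22.8 TPM (-1.40, limma adjusted p = 0.0286). Against non-CLL cells 0 of 28 rose and 6 fell, beside 0.744% and 5.02% of all genes, the largest falls being Lifr (-4.97), Il7r (-3.14) and Ifnlr1 (-2.05). Lifr was at 3.59 to 30.5 TPM in CLL libraries, at 113 to 1002 TPM in non-CLL libraries and at 42.8, 265 and 44.6 TPM in the wild-type libraries. Il7r was at 3.10 to 16.5 TPM in CLL libraries, at 28.6 to 113 TPM in non-CLL libraries and at 0.486, 42.3 and 0.863 TPM in wild-type libraries. Both were thus high in the non-CLL libraries and in wild-type library 2, the libraries that were highest in Siglech, and the part of dendritic cells in these falls was not tested. Ifnlr1 was at 34.7, 5.31, 7.03 and 10.8 TPM in non-CLL libraries 2, 4, 5 and 6. Their olfactory receptor medians were 8.52, 8.06, 7.16 and 9.24 TPM, so only library 2 stood well above its background. In CLL libraries Ifnlr1 was at 0.711 to 3.60 TPM. In non-CLL against wild-type cells 13 of 28 were called higher, beside 55.8% of all genes, led by Il7r (3.46), Il23r (3.40) and Ghr (3.15), with mean non-CLL levels of 12.5 TPM for Il23r and 9.95 TPM for Ghr. The levels of Il23r and Ghr are close to the background of those libraries.

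Among 15 ligands of these receptors, Il10 was called higher in CLL cells in both comparisons. Il10, an anti-inflammatory cytokine made by some B cells, stood at 229, 54.7, 30.4, 113 and 70.8 TPM in CLL libraries 1, 2, 4, 5 and 6. It was at 15.5, 6.69, 12.1 and 9.76 TPM in non-CLL libraries, near their background, and at 0, 4.40 and 2.79 TPM in wild-type libraries. It rose by 4.87 on the log2 scale against wild-type cells (SE 0.70, limma adjusted p = 0.0057) and by 2.79 against non-CLL cells (SE 0.47, adjusted p = 0.0047). In CLL against wild-type cells 2 of 14 ligands were called higher, beside 2.94% of all genes, the other being Il4 (2.19, adjusted p = 0.0472). Il4 stood at 2.304, 4.51, 2.66, 6.26 and 11.9 TPM in CLL libraries 1, 2, 4, 5 and 6, whose olfactory receptor medians were 1.34, 2.71, 1.08, 2.55 and 9.66 TPM, and at 0.838 TPM or below in wild-type libraries. Its level was thus low and moved with the background of the library, whose part was not tested. Against non-CLL cells 1 of 15 rose and 1 fell (Ifnb1, -1.84), beside 0.744% and 5.02% of all genes. In young mutant B cells 1 of 3 ligands tested rose, Il10, from a mean of 0.275 to 2.67 TPM (1.52, adjusted p = 0.00051), and Il15 fell (-0.94, adjusted p = 0.0471), beside 38.4% and 12.6% of all genes. The part of neutrophil and macrophage RNA of the young wild-type libraries in the fall of Il15 was not tested. Of the 15 ligands, 13 were called higher in non-CLL against wild-type cells, beside 55.8% of all genes, led by Ifnb1 (3.53), Ifng (3.51) and Il9 (3.39), at mean non-CLL levels of 14.3, 13.6 and 10.1 TPM, near the background of those libraries.

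Of 11 JAK and STAT genes, none was called higher in CLL cells by limma. Against wild-type cells 1 of 11 was called lower, beside 0.604% of all genes. This was Stat4, a STAT known from IL-12 signalling, and 6 of the 11 had an unadjusted p below 0.05, 0 of them higher. Stat4 stood at 1.30, 4.25, 1.85, 3.68 and 11.8 TPM in CLL libraries, at 17.4, 48.9, 38.4 and 56.4 TPM in non-CLL libraries and at 89.7, 26.8 and 67.7 TPM in wild-type libraries. All CLL libraries lay below the other 7. The part of dendritic, T and natural killer cells in these levels was not tested. Stat4 fell by 3.60 on the log2 scale against wild-type cells (SE 0.53, adjusted p = 1.23e-05) and by 3.05 against non-CLL cells (SE 0.49, adjusted p = 0.00049). Stat2, a STAT of type I interferon signalling, fell against non-CLL cells as well (-1.41, SE 0.27, adjusted p = 0.0041), so that 2 of 11 were lower there, beside 5.02% of all genes, with 7 at an unadjusted p below 0.05, 0 of them higher. Between non-CLL and wild-type cells 0 of 11 were called by limma, beside 57.3% of all genes, and 0 had an unadjusted p below 0.05. In young mutant B cells 7 of 11 rose and 0 fell, beside 38.4% and 12.6% of all genes, led by Jak3, the kinase that binds Il2rg (0.69, adjusted p = 0.0079), Jak1 (0.62, adjusted p = 0.0011) and Stat6, the STAT of IL-4 signalling (0.56, adjusted p = 0.0013).

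Feedback regulators and targets of these receptors were counted over 20 genes. In young mutant B cells 9 of the 19 tested rose and 4 fell, beside 38.4% and 12.6% of all genes, and their median difference was 0.25 against 0.18 for all genes. The kinases Pim2 (1.01) and Pim1 (0.99) and Socs4 (0.63) rose most, and Socs3 (-1.23), Socs1 (-1.15) and the cytokine Osm (-1.09) fell most. The part of the neutrophil and macrophage RNA of the young wild-type libraries, and of sex, in these changes was not tested. In CLL against wild-type cells 1 of 20 rose, Pim2 (1.59, adjusted p = 0.0497), and 2 fell, Osm (-1.87) and Usp18, a brake on type I interferon signalling (-1.81, adjusted p = 0.01), beside 2.94% and 0.604% of all genes. Against non-CLL cells Usp18 fell too (-1.50, adjusted p = 0.0295), the 1 call of 20, beside 5.77% of all genes. Pim2 (1.73), Cish (1.53) and Socs4 (1.09) were called higher in non-CLL against wild-type cells and 0 of the 20 lower, beside 55.8% and 1.48% of all genes. Cish was at 2.36 to 4.96 TPM in the non-CLL libraries, below their olfactory receptor background of 7.16 to 9.24 TPM. Socs4 was -0.0051 there under TMM rescaling.

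The genes whose pattern was most like that of Il5ra were ranked by the Pearson correlation of log2(TPM + 1) over the 12 aged libraries, among 6781 genes with a mean of at least 20 TPM. The 5 most alike were Mgst1 (r = 0.952), 8430410A17Rik (0.948), Nid1 (0.927), Hepacam2 (0.926) and 1810046K07Rik (0.917). The libraries share a group structure, so the correlations describe mainly the step between CLL cells and the rest. Mgst1, a microsomal glutathione transferase, ran from 60.0 to 97.0 TPM in CLL, from 5.41 to 28.7 TPM in non-CLL and from 1.71 to 20.7 TPM in wild-type libraries. Hepacam2 ran from 563 to 786 TPM in CLL libraries and from 106 to 164 TPM in the others. 1810046K07Rik ran from 4399 to 7421 TPM in CLL, from 103 to 414 TPM in non-CLL and from 11.2 to 14.9 TPM in wild-type libraries. Nid1, a basement membrane protein that is also on the list of B-1 cell markers used here, ran from 43.1 to 161 TPM in CLL and from 4.07 to 23.0 TPM in the other libraries.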

How the data were processed

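RNA was sequenced in 18 libraries; the 12 chromatin samples of the series, 3 of which could not be assigned to a group, were not analysed here. Both deposited tables hold TPM per library, one for the aged and one for the young mice, since every column has the same total; the authors named TPM for the aged table. Per the submitters' processing notes STAR 2.4.0.1, Bowtie2 2.3.4.1, MACS2 2.2.0 and the build mm10 were used for the series; the sources used here do not give the tool that made the TPM or any filter. The aged table has 22806 rows, of which 25 bear date names and were left out; the young table has 27179, of which 26 bear date names and 887 no name. A gene was tested where it reached 1 TPM in at least the number of libraries of the smaller group, on log2(TPM + 1) with limma 3.58.1 in R 4.3.3 (trended, robust variance, only the 2 groups compared, two-sided), with Benjamini-Hochberg adjustment over all genes tested and a threshold of 0.05. Such fold changes understate those of low genes. The fit was tested on simulated data. Of genes given a log2 change of 1, it called 92% in the young comparison and 2% in CLL against wild-type. It called 14% in CLL against non-CLL and 2% in non-CLL against wild-type. Of those given a change of 2 it called 97%, 72%, 76% and 54%, in the same order. Of the genes called, 5.03%, 10.8%, 5.26% and 3.45% were false, beside the threshold of 0.05. The share of false calls in CLL against wild-type thus exceeded the threshold. These rates describe the simulated data, and whether they hold for low genes or for libraries of unequal background was not tested. Alternatives were another pseudocount, other filters, TMM rescaling, library weights, background subtraction, 1 fit of all aged libraries, heterozygous mice only, the replicate block and leaving out libraries. In both comparisons with aged wild-type cells, heterozygous mice only and leaving out mutant library 6 are the same fit. The numbers of alternatives given for them count that fit again. Leaving out 1 aged wild-type library leaves 2 in that group. The 10 genes, the gene lists and the tests were chosen with earlier results of these data known, so the tests are no independent support. Every one of the 10 is named in each comparison, and of each list the called genes with the largest change, up to 3 per direction. Other genes were named after their values were seen: Siglech, Lyz2, Xist, Ddx3y and the markers at 0. Of the genes on the lists, 2 are not reported here and were left out of the counts and sums given for their lists. Of the listed genes, 5 were matched to older symbols in the aged table. Positions and promoter sequences are those of RefSeq on GRCm38.p6.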

Additional observations from a re-analysis of the deposited data

Results flagged for a closer look

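Il2rg stood at 2266 TPM in CLL library 1, far above the other 4 CLL libraries at 488 to 785 TPM, and its distance from them exceeded the limit of Dixon's test. Of 20 groups of values of the 10 genes that were tested in this way, 1 was so marked, and chance marks about 1 in 20. Without that library the difference of Il2rg between CLL and non-CLL cells was -0.36.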

How the results depend on the processing

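The numbers below are counts of genes called by limma with Benjamini-Hochberg adjustment, or log2 differences, and the cause of each change was not tested unless fewer genes or libraries account for it. Low depth cannot be judged, since no read numbers are at hand, and genes near 1 TPM or near a library's background are the least certain. Csf2rb and Csf2rb2 in the young and Csf2rb2 in the CLL against wild-type comparison were not tested with at least 20 TPM.

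In young mice 6237 genes and 6 of the 10 were called; 4002 genes passed with at least 20 TPM, and 2858 genes and 1 of the 10 without wild-type libraries 1 and 2. In CLL against wild-type cells 751 genes and 1 of 9 were called. The counts were 8853 and 4 with a pseudocount of 0.1 TPM, 457 genes with no filter, 149 and 0 with at least 20 TPM, 6522 and 6 with TMM rescaling, 12299 and 6 with library weights, 101 and 0 with background subtracted, 6712 and 4 with all aged libraries in 1 fit, 5643 and 3 with heterozygous mice only, and 8263 and 4 without wild-type library 2 and CLL library 6, a setting chosen after seeing the data. Leaving out 1 library at a time gave 345 to 8222 genes and 1 to 6 of the 9. Both counts of 0 stand beside 1 of 9 in the main analysis. In CLL against non-CLL cells 1287 genes and 5 of 9 were called. The counts were 256 and 3 with a pseudocount of 0.1 TPM, 232 genes with at least 20 TPM, 350 and 2 with TMM rescaling, 11705 genes with library weights, 348 and 3 with background subtracted, 3387 genes in 1 fit of all aged libraries and 11173 with heterozygous mice only. Leaving out 1 library at a time gave 325 to 11118 genes, the highest without CLL library 6, and 3 to 6 of the 9. In non-CLL against wild-type cells 12681 genes and 1 of 9 were called. The counts were 83 and 0 with at least 20 TPM, 43 and 0 with background subtracted, 6 of 9 with TMM rescaling, 3 with library weights, 0 with heterozygous mice only, and 0 to 2 on leaving out 1 library at a time.

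Whether the replicate numbers shared by groups pair the libraries was not settled. Same-numbered libraries correlated in their deviations at -0.102, 0.242 and 0.316 in young mice and between -0.023 and 0.124 in CLL against non-CLL cells. The best match bore the same number for young homozygous libraries 2 and 3 and, against non-CLL cells, for CLL libraries 5 and 6. It did not for young homozygous library 1 or, against non-CLL cells, for CLL libraries 2 and 4. CLL and wild-type cells share only numbers 1 and 2, so their correlations, both 0.0375, are equal by construction. With the replicate block 6631 genes and 7 of the 10 were called in young mice, 2 genes and 0 of 9 in CLL against wild-type cells, and 697 genes and 3 of 9 in CLL against non-CLL cells. No paired analysis was possible for non-CLL against wild-type cells because they share 1 number.

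Differences that changed sign were small or did not pass the test in the main analysis, apart from Socs4, and Il5ra was not tested. In young mice Il10rb was -0.10 under TMM rescaling and -0.011 without wild-type libraries 1 and 2, where Il10ra was 0.12; leaving out 1 library moved Il10ra between -0.11 and 0.052. In CLL against wild-type cells Csf2rb2 was -0.35 under TMM rescaling, -1.15 with background subtracted, -0.20 in heterozygous mice, -0.16 with the replicate block and -0.66 to 1.26 on leaving out 1 library. Il2rg was 0.035 in heterozygous mice, 0.13 without wild-type library 2 and CLL library 6, 0.70 with the replicate block and -0.49 to 0.063 on leaving out 1 library, and Ifngr1 was 0.023 with the replicate block. In CLL against non-CLL cells TMM rescaling gave 0.45 for Il4ra, 0.070 for Il10ra and 0.86 for Ifngr1. Il2rg was -0.028 with library weights, -0.028 in heterozygous mice, -0.36 with the replicate block and -0.36 to 0.21 on leaving out 1 library. Ifngr1 was 0.47 with library weights, 0.033 with background subtracted, 0.091 in heterozygous mice, 0.24 with the replicate block and -0.36 to 0.24 on leaving out 1 library. In non-CLL against wild-type cells TMM rescaling gave -0.34 for Il5ra, -0.72 for Csf2rb, -1.14 for Il10ra, -0.94 for Il10rb, -1.04 for Il21r, -1.02 for Ifnar1 and -0.0051 for Socs4 (main value 1.09). Library weights gave -0.11 for Il10ra, -0.045 for Il10rb and 0.0050 for Il2rg, background subtraction -0.082 for Il10ra and -0.070 for Il21r, and heterozygous mice 0.012 for Il4ra and 0.063 for Il2rg. Leaving out 1 library gave -0.18 to 0.16 for Il10ra, -0.13 to 0.33 for Il21r, -0.46 to 0.012 for Il4ra, -0.31 to 0.063 for Il2rg and -0.17 to 1.24 for Csf2rb.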
